A study of Saccharomyces cerevisiae and Saccharomyces paradoxus and Saccharomyces cerevisiae x Saccharomyces paradoxus with 12 samples.

Results

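The mRNA of diploid Saccharomyces cerevisiae (strain GSY83) was compared with that of diploid Saccharomyces paradoxus (strain GSY82), a close relative, gene by gene. The comparison takes the 2 RNA-seq libraries of each species, 4 of the 12 libraries of the series and 4 of its 16 count columns, and all 5226 genes of the count table. The other libraries are ribosome profiling (Ribo-seq) of the same strains and both assays in their F1 hybrid, in which each allele was counted. All strains grew in YEP+D, a rich medium with glucose, and were treated with cycloheximide, which stalls ribosomes, before polysome extracts were made, so the 2 species shared medium and drug. Each species is represented by 1 strain, and the headers call the parental columns "Mix", which the sources used here do not explain. Whether replicates were grown separately is not stated, and the p-values then cover only the spread between libraries, which may be technical. That spread was estimated for each gene over all 16 count columns, Ribo-seq and hybrid included, not over these 4 libraries alone.

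A steady mRNA level is set by how fast a gene is transcribed and how fast its mRNA is degraded. Both depend on sequences beside the gene, which differ between the species, and on regulators made elsewhere in the genome, which also differ. In glucose, budding yeast ferments and represses genes of respiration and of other carbon sources. It spends much of its mRNA on glycolytic enzymes and on the machinery of translation.

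Of the 5226 genes, 5158 passed the filter on low counts and 68 did not. Depth was 7109313 and 7201063 counts in S. cerevisiae replicates 1 and 2, and 7096639 and 7190496 in S. paradoxus. Across genes the log2 levels of the replicates correlated by 0.993 in S. cerevisiae and 0.979 in S. paradoxus. Levels are in CPM, the usual depth-scaled count, after TMM, a scaling that assumes most genes do not differ. They are shares of an mRNA pool, so a difference in total mRNA per cell cannot be seen. More mRNA of some genes cannot be told from less of the rest. The S. cerevisiae columns held 15 and 18 genes at 0 counts and 19 and 16 at 1 count, while the S. paradoxus columns held 0 genes at 0 counts and 62 and 50 at 1 count, and how zeros were treated before deposit is not stated. Log2 ratios are S. cerevisiae minus S. paradoxus throughout, and adjusted p-values are from the quasi-likelihood test of edgeR, adjusted by the Benjamini-Hochberg method over all genes tested.

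The levels of the 2 species ran together across genes, with a Spearman correlation of 0.850 over the 5158 genes. A call, meaning an adjusted p below 0.05, was made for 43.5% of the genes, with 21.9% higher and 21.6% lower in S. cerevisiae. For 4046 genes (78.4%) the 2 libraries of one species both lay above the 2 of the other. Most differences were small. The median size was 0.52 on the log2 scale, 3981 genes (77.2%) lay within 2-fold, and the middle 90% of ratios ran from -1.34 to 1.77. Large differences were mostly in one direction. Of the called genes that differed at least 4-fold, 207 had more and 72 less mRNA in S. cerevisiae. At 8-fold the counts were 70 and 22, and at 16-fold 26 and 8. At least 2-fold but not called were 55 genes.

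The even split of calls depends on the scaling. With library totals in place of TMM the median of all genes moved by 0.27, and 1698 genes were called higher and 650 lower. With upper-quartile scaling it moved by 0.15, with 1438 higher and 834 lower. DESeq2's size factors gave 1060 and 1228. Ratios below are read against the TMM zero, which is also the median of all genes. Leaving out S. cerevisiae replicate 2 left 1352 calls (745 higher, 607 lower), and without S. cerevisiae replicate 1 there were 827 higher and 694 lower.

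**Figure D1:**
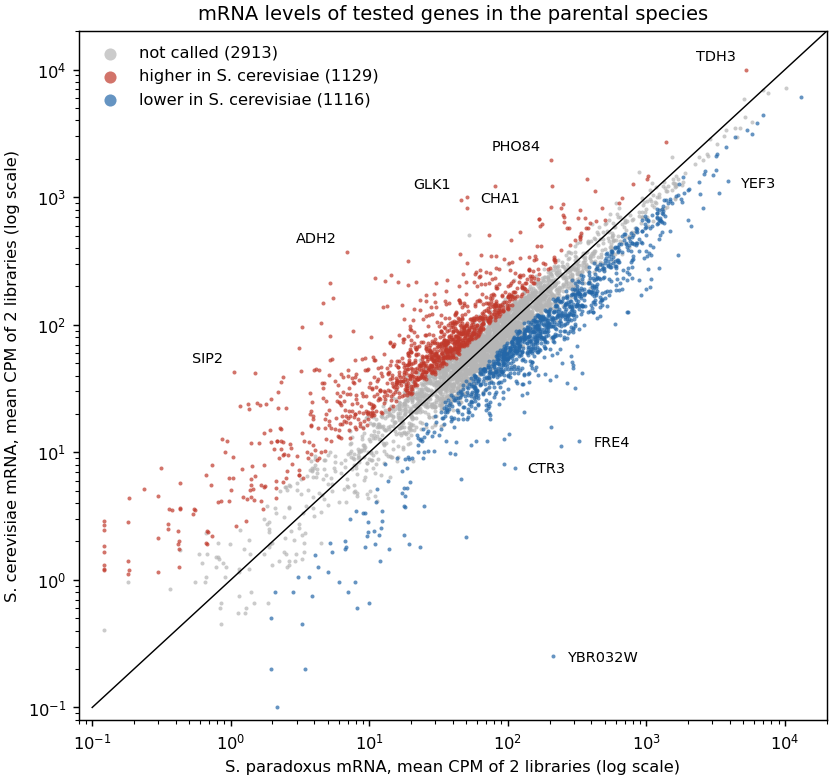
Mean mRNA level of each of the 5158 tested genes in S. paradoxus (x axis) and S. cerevisiae (y axis), in CPM over 2 libraries, on log scales. Red points were called higher and blue points lower in S. cerevisiae, grey points were not called, and the line marks equal levels. The points of lowest level scatter most widely, and many of the most abundant genes lie below the line.

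Genes with little mRNA tended to be higher in S. cerevisiae and genes with much mRNA higher in S. paradoxus. The genes were split into quartiles by their mean level over both species. In the lowest quartile 460 genes were called higher and 149 lower, with a median ratio of 0.44. The counts were 324 and 166 in the second quartile (median 0.12) and 212 and 306 in the third (median -0.05). The highest quartile had 133 higher and 495 lower, with a median of -0.36. The scaling moves these medians up or down together. Beside this, the 500 most abundant genes of each library took 51.6% and 52.3% of the counts in S. cerevisiae and 59.6% and 55.9% in S. paradoxus, a share that no scaling changes and whose part in the result was not tested. Of the called differences of at least 4-fold, 186 of 279 were in the lowest quartile.

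**Figure D2:**
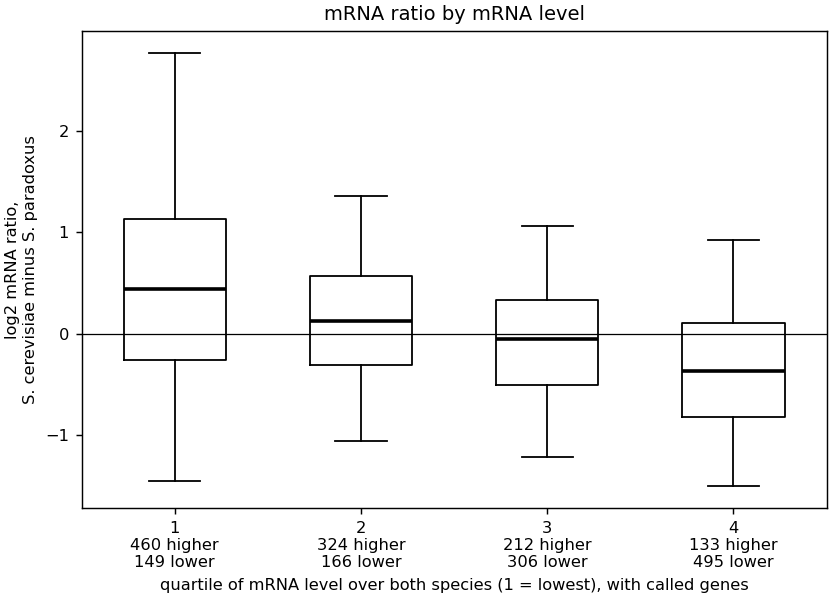
Log2 mRNA ratio (S. cerevisiae minus S. paradoxus) of the tested genes in 4 quartiles of mRNA level over both species. Boxes span the middle 50% with the median as a thick line, whiskers reach from the 5th to the 95th percentile, and the numbers of called genes stand under each box. The median falls from 0.44 in the lowest quartile to -0.36 in the highest.

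The 10 genes whose mRNA exceeded that of S. paradoxus by the most CPM were TDH3, PHO84, CIT2, YHB1, ENO1, PDR5, CHA1, GLK1, YNL134C and SPO24, and together they made up 22365 CPM in S. cerevisiae against 8098 in S. paradoxus. The 10 with the largest deficit were PDC1, RPS12, RPP0, YEF3, RPL3, RPL7A, TEF1, HSC82, SSB1 and HYP2, with 26266 CPM in S. cerevisiae against 52487 in S. paradoxus. These genes were chosen by their differences, so the sums are a description.

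TDH3, the main glyceraldehyde-3-phosphate dehydrogenase, had 9741 and 10132 CPM in S. cerevisiae against 6172 and 4381 CPM in S. paradoxus (log2 ratio 0.91, SE 0.16, adjusted p = 0.000709). PDC1, the main pyruvate decarboxylase, whose reaction opens the fermentation branch, ran the other way. It had 6123 and 5979 CPM in S. cerevisiae against 13482 and 12447 CPM in S. paradoxus (-1.10, SE 0.15, adjusted p = 0.000134). In both genes the libraries of the 2 species were well apart, and PDC1 held the largest difference in CPM of all called genes. Of the other glycolytic enzymes among the most abundant mRNAs, the phosphoglycerate mutase gene GPM1 had 6960 ± 414 CPM in S. cerevisiae against 6955 ± 926 in S. paradoxus (SD, n = 2 each), a ratio of 0.00 that was not called.

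YEF3, which encodes the fungal elongation factor that helps empty the ribosomal exit site, had 1355 and 1321 CPM in S. cerevisiae against 4228 and 3539 in S. paradoxus (-1.54, SE 0.27, adjusted p = 0.000698). HSC82, an Hsp90 chaperone gene, was at 781 and 853 CPM against 2795 and 2331 (-1.65, SE 0.33, adjusted p = 0.00143). SSB1, an Hsp70 that binds chains as they leave the ribosome, was at 1631 and 1640 CPM against 3176 and 3156 (-0.95, SE 0.18, adjusted p = 0.00113). For each of these the higher species had about 2 to 3 times the lower one, and no library crossed over, as in 78.4% of all genes. The calls of RPS12 and RPP0, of the ribosome's small subunit and stalk, depended on single libraries and on the scaling. RPS12 had 7634 CPM in S. paradoxus replicate 1 and 3982 in replicate 2, and neither it (adjusted p = 0.496) nor RPP0 (0.182) was called without replicate 1. Without S. cerevisiae replicate 1 or 2 they were not called either, with adjusted p of 0.147 and 0.176 for RPS12 and 0.129 and 0.11 for RPP0. With library totals the adjusted p was 0.137 for RPS12 and 0.125 for RPP0, with upper-quartile scaling 0.103 and 0.0862, and limma voom gave 0.0616 for RPS12. TEF1 was not called without S. paradoxus replicate 1 (adjusted p = 0.0654), nor without S. cerevisiae replicate 2 (0.0689). TDH3, ENO1, PDC1, YEF3, TEF1, HSC82, SSB1, RPL7A and HYP2 have near-identical or similar paralogs, and their counts are uncertain for that reason.

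Per kilobase of coding sequence, CCW12, a cell wall mannoprotein gene, was first in both species, at 17955 and 25192 CPM per kilobase. It was not called (-0.50, adjusted p = 0.0819). TDH3 was second in S. cerevisiae and 17th in S. paradoxus, and RPS12 was sixth and second. SPO24, a short sporulation-related gene, was eighth in S. cerevisiae at 5516 CPM per kilobase and 111th in S. paradoxus at 2071.

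The 12 largest ratios in favour of S. cerevisiae among genes of at least 20 CPM in one species and like length in both were ADH2, SIP2, BDH2, HSP31, PHM8, DCS2, PRY1, NTH1, YJR096W, GLK1, YHR140W and CHA1, with ratios from 5.75 down to 4.29. In all 12 the libraries of the species did not overlap, which follows from choosing them by their ratios and held for 78.4% of all genes. SIP2 (chromosome VII, 97338 to 98585, sacCer3) encodes one of the alternative beta subunits that steer the Snf1 kinase, the switch of glucose repression. It had 38.1 and 47.3 CPM in S. cerevisiae against 1.52 and 0.582 CPM in S. paradoxus (log2 ratio 5.34, SE 0.63, adjusted p = 4.19e-05). GLK1 (III, 50838 to 52340), the glucokinase, was a major mRNA in one species and a minor one in the other, at 862 and 1052 CPM against 66.3 and 26.2 (4.37, SE 0.60, adjusted p = 0.000128). The S. paradoxus replicates of both genes differed by over 2-fold, far less than the distance to S. cerevisiae.

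CHA1 (III, 15798 to 16880), the deaminase that lets yeast use serine and threonine as nitrogen sources, had 999 and 997 CPM in S. cerevisiae against 51.9 and 50.3 CPM in S. paradoxus (4.29, SE 0.21, adjusted p = 5.66e-08). YJR096W (X, 611195 to 612043), an aldo-keto reductase gene, had 59.4 and 71.2 CPM against 3.30 and 2.91 (4.39, SE 0.25, adjusted p = 1.21e-07). For both, replicates lay close together in each species. PRY1 (X, 289875 to 290774), a secreted sterol-binding protein gene, had 85.2 and 120 CPM against 3.43 and 5.59 (4.50, SE 0.56, adjusted p = 6.08e-05). DCS2 (XV, 657264 to 658325), a stress-induced relative of the decapping scavenger enzyme, had 36.7 and 46.9 CPM against 2.16 and 0.815 (4.81, SE 0.69, adjusted p = 0.000167). The next ratio after CHA1, just outside the 12, was that of RGI1 at 4.16.

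In the other direction the 12 lowest ratios belonged to YBR032W, FRE4, ECM13, RTA1, CTR3, MGA1, MUP3, PCL5, YEH1, PLN1, HMX1 and ARG3, and ran from -9.63 to -2.87. The next one, just outside, was CDA1 at -2.70. Here too no library crossed over, in genes chosen by their ratios. YBR032W (II, 301519 to 301821) was nearly on or off. It had 4 and 1 counts in the S. cerevisiae libraries and 2022 and 1442 in S. paradoxus (-9.63, adjusted p = 6.31e-09), and the log2 ratio of its summed counts was -9.71 with an exact 95% interval from -11.3 to -8.49 for counting error only. Its Ribo-seq columns held 1 count each in both parents and in both hybrid alleles. In the hybrid RNA-seq the S. cerevisiae allele had 2 and 5 counts and the S. paradoxus allele 1608 and 1414. The difference was large in RNA-seq of the parents and of the hybrid, and Ribo-seq had no reads beyond that 1 count to compare.

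MUP3 (VIII, 26241 to 27881), a low-affinity methionine permease gene, had 7.84 and 8.25 CPM in S. cerevisiae against 88.5 and 99.9 in S. paradoxus (-3.55, SE 0.39, adjusted p = 2.3e-05). PCL5 (VIII, 237004 to 237693) encodes the cyclin that directs the Pho85 kinase to the amino acid regulator Gcn4. It had 36.9 and 27.6 CPM against 323 and 286 (-3.24, SE 0.26, adjusted p = 2.06e-06). Both were roughly 10 times higher in S. paradoxus.

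YEH1 (XII, 125534 to 127255), a steryl ester hydrolase gene, had 46.0 and 37.5 CPM in S. cerevisiae against 311 and 377 in S. paradoxus (-3.04, SE 0.22, adjusted p = 9.68e-07). PLN1 (XI, 524223 to 525074), a perilipin-like protein gene of lipid droplets, had 35.8 and 34.0 CPM against 274 and 257 (-2.93, SE 0.26, adjusted p = 5.8e-06). HMX1 (XII, 552724 to 553677), the heme oxygenase, had 15.3 and 9.96 CPM against 120 and 66.9 (-2.88, SE 0.32, adjusted p = 2.65e-05). MGA1 (VII, 988049 to 989419), a gene of a protein like the heat shock factor with a part in filamentous growth, had 2.51 and 1.11 CPM against 20.1 and 26.4 (-3.67, SE 0.49, adjusted p = 0.000107). The replicates of PLN1 nearly coincided, while those of HMX1 in S. paradoxus differed almost 2-fold.

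**Figure D3:**
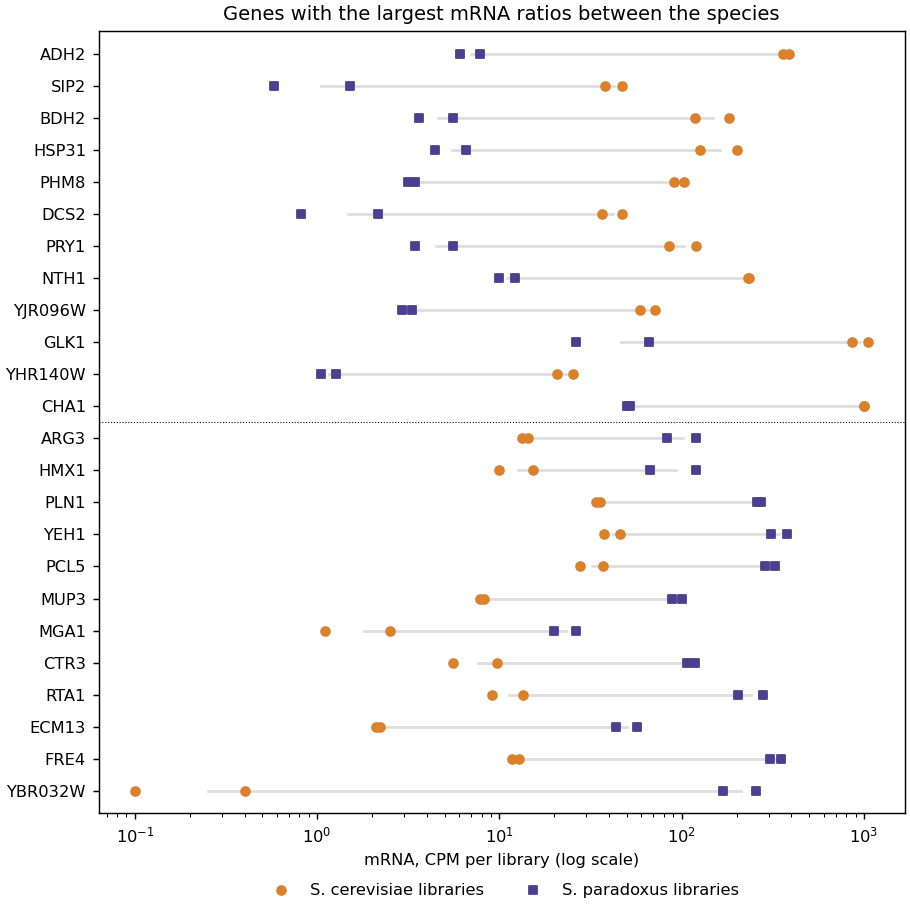
CPM in each library (log scale) of the 12 genes with the highest and the 12 with the lowest log2 mRNA ratio. Circles are the 2 S. cerevisiae libraries and squares the 2 S. paradoxus libraries, joined by a grey line between the species' means. No circle lies between squares of the same gene, and YBR032W has the widest gap.

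Genes were also read by pathway, in 50 lists that hold 1109 tested genes. Each list is described by its count of called members beside the 21.9% and 21.6% of all genes, and by its median ratio beside the median of 0.00 of all genes. The lists were not matched for mRNA level, with which calls and median ratios varied. The highest quartile of level had 133 higher and 495 lower of 1290 genes (median -0.36). The lowest had 460 higher and 149 lower of 1290 (median 0.44). How much of a list's shift goes with level was not tested. The Pho4 regulon, the genes that the factor Pho4 switches on when phosphate is scarce, had 9 of 11 tested members higher and 0 lower, with a median of 2.04. The largest ratio was that of SPL2, a regulator of phosphate uptake whose orthologs differ in length by 10.7%, at 5.36, and PHM6 was at 2.77. Other higher members were the transporter gene PHO84, subunits of the polyphosphate polymerase and phosphatases. VTC1 had 687 and 656 CPM in S. cerevisiae against 199 and 136 in S. paradoxus (2.00, SE 0.22, adjusted p = 2.23e-05), and VTC2 had a ratio of 1.27 and VTC4 of 2.04. PHO5, the secreted acid phosphatase, was at 818 and 967 CPM against 244 and 256 (1.84, SE 0.36, adjusted p = 0.00133), and shares sequence with PHO3. PHO8, the vacuolar alkaline phosphatase, was at 464 and 468 CPM against 117 and 95.1 (2.13, SE 0.30, adjusted p = 0.000132). The members not called were the transporter genes GIT1 (0.66, adjusted p = 0.135) and PHO89 (0.91, adjusted p = 0.288). PHO89 was itself uneven within species, with 129 and 52.1 CPM in S. cerevisiae against 65.5 and 30.9 in S. paradoxus.

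Of the enzymes that digest proteins and other cargo inside the vacuole, most had more mRNA in S. cerevisiae. The list of 12 holds 11 hydrolase genes, PHO8 among them, and PBI2, the gene of a cytosolic inhibitor of proteinase B. Of the 12, 11 were higher and 0 lower, with a median of 1.13, and leaving out 1 library left 8 or 9 called. PEP4, proteinase A, which activates the other vacuolar proteases, had 576 CPM in each S. cerevisiae library and 264 and 272 in S. paradoxus (1.11, SE 0.28, adjusted p = 0.00602). PRC1, carboxypeptidase Y, had 584 and 642 CPM against 175 and 178 (3.48-fold, log2 SE 0.31, adjusted p = 0.000623). APE1, aminopeptidase I, had 95.4 and 127 CPM against 21.6 and 27.0 (2.19, SE 0.34, adjusted p = 0.000299), and AMS1, alpha-mannosidase, had a ratio of 2.22. The member not called was PRB1, proteinase B, at 129 and 117 CPM in S. cerevisiae against 222 and 175 in S. paradoxus (-0.69, adjusted p = 0.166). PBI2 (0.65, adjusted p = 0.044) and CPS1, a carboxypeptidase gene (0.61, adjusted p = 0.0307), were called in no fit with a library left out, with adjusted p from 0.0818 to 0.181 for PBI2 and from 0.0672 to 0.142 for CPS1. With only the RNA-seq columns of the parents and the hybrid in the fit, 7 members were called higher.

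Autophagy genes, whose products wrap cytoplasm and deliver it to the vacuole, had 17 of 34 higher and 1 lower, with a median of 0.70. Receptors that choose cargo are given first. ATG19, the receptor that carries APE1 and AMS1 to the vacuole, had 193 and 220 CPM in S. cerevisiae against 15.7 and 22.1 in S. paradoxus (3.44, SE 0.23, adjusted p = 5.69e-07). ATG36, the receptor for peroxisomes, was at 25.4 and 23.8 CPM against 0.762 and 2.33 (3.96, SE 0.47, adjusted p = 4.7e-05). ATG34, a relative of ATG19 that carries AMS1, and ATG40, a receptor for the endoplasmic reticulum, both had ratios of 2.19. The receptors ATG32 for mitochondria (0.60, adjusted p = 0.237) and ATG39 for the nuclear envelope (1.01, adjusted p = 0.063) were not called.

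Of the core machinery, the kinase gene ATG1 had 10.7 and 10.4 CPM in S. cerevisiae against 15.0 and 14.8 in S. paradoxus (-0.50, adjusted p = 0.0594) and was not called. ATG8, whose product is attached to the growing membrane, had a ratio of 0.72 (adjusted p = 0.0514) and ATG9 of -0.24. ATG7, the enzyme that activates Atg8 and Atg12, was higher at 42.4 and 47.7 CPM against 7.74 and 12 (2.19, SE 0.38, adjusted p = 0.000615). ATG23, which helps Atg9 travel, was the lower one at 27.3 and 22.2 CPM against 66.9 and 82.8 (-1.59, SE 0.36, adjusted p = 0.00354). Leaving out 1 library left 13 to 15 genes of the list called higher, and 2 were lower without S. paradoxus replicate 2.

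Multidrug efflux genes had 12 of 20 higher and 1 lower, with a median of 1.13. PDR5, the main drug pump of the plasma membrane, had 1365 and 1418 CPM in S. cerevisiae against 382 and 363 in S. paradoxus (1.90, SE 0.28, adjusted p = 0.000186). QDR2, a transporter of the major facilitator family, had 124 and 155 CPM against 12.8 and 14.2 (3.37, SE 0.37, adjusted p = 2.55e-05), and its relative QDR1 had a ratio of 1.58. PDR11 and AUS1, ABC transporters that take up sterol, had ratios of 2.51 and 1.39, and AUS1 was not called without S. cerevisiae replicate 2 (adjusted p = 0.0635) or without S. paradoxus replicate 1 (0.0942) or 2 (0.0647). Of the zinc cluster regulators of these genes PDR8 was higher (1.45, adjusted p = 0.000138), while PDR1 was at -0.43 and not called. YOR1, the oligomycin pump, was lower at -0.86, a call that was lost without S. paradoxus replicate 1 (adjusted p = 0.268) and without either S. cerevisiae library (0.0755 and 0.0856). Without S. cerevisiae replicate 2, 7 members were called higher.

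TPO4, a polyamine exporter gene, had 317 and 384 CPM in S. cerevisiae against 62.8 and 65.2 in S. paradoxus (2.45, SE 0.47, adjusted p = 0.00115), and TPO2 (2.14) and TPO3 (1.44) were higher too, while TPO1 (-0.49) and TPO5 (-0.04) were not called. SPE1, ornithine decarboxylase, the first enzyme of polyamine synthesis, was lower at 85.0 and 76.1 CPM against 183 and 165 (-1.11, SE 0.16, adjusted p = 0.000186). So 3 of 10 tested polyamine genes were higher and 1 lower, with a median of -0.02. In the sphingolipid list, with 9 higher and 4 lower of 31 and a median of 0.22, both ceramidase genes were among the highest. YDC1 had 134 and 143 CPM against 27.4 and 28.4 (2.31, SE 0.20, adjusted p = 4.25e-06), and YPC1 had a ratio of 2.15. With library totals as the scaling 15 members were higher and 2 lower.

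Glycerol genes had 7 of 11 higher and 0 lower, with a median of 0.97, on the paths of synthesis and of use alike. GPD1, which makes glycerol 3-phosphate and is induced by osmotic stress, had 318 and 369 CPM in S. cerevisiae against 72.4 and 79.9 in S. paradoxus (4.51-fold, log2 SE 0.34, adjusted p = 0.000302). GUT1, glycerol kinase, had 78.2 and 86.5 CPM against 20.1 and 24.5 (1.88, SE 0.41, adjusted p = 0.00245). GUT2, the mitochondrial glycerol 3-phosphate dehydrogenase, had 24.5 and 29.1 CPM against 6.47 and 2.80 (2.54, SE 0.46, adjusted p = 0.000788). The 2 species did not overlap in any of these genes, as in 78.4% of all genes. The channel FPS1 (0.07) and the symporter STL1 (-0.06) were not called, and leaving out 1 library left 5 or 6 members higher.

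NAD synthesis and salvage genes had 10 of 18 higher and 2 lower, with a median of 0.74. POS5, the mitochondrial NADH kinase, had 77.9 and 87.5 CPM in S. cerevisiae against 26.0 and 24.2 in S. paradoxus (1.72, SE 0.17, adjusted p = 1.01e-05). PNC1, the nicotinamidase of the salvage path, had 302 and 365 CPM against 129 and 118 (1.43, SE 0.25, adjusted p = 0.000647). BNA4, kynurenine monooxygenase of the path from tryptophan, was lower at 47.5 and 55.6 CPM against 105 and 114 (-1.09, adjusted p = 0.00696), and not called without S. cerevisiae replicate 1 (0.0638).

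Yeast oxidises fatty acids in the peroxisome. Of 16 beta-oxidation genes 8 were higher and 1 lower, with a median of 0.68, and 4 were higher without S. cerevisiae replicate 2. PXA2, a subunit of the fatty acid importer of peroxisomes, had 39.7 and 42.1 CPM in S. cerevisiae against 5.08 and 7.34 in S. paradoxus (2.71, SE 0.27, adjusted p = 1.15e-05). MDH3, the peroxisomal malate dehydrogenase, had 181 and 186 CPM against 34.3 and 37.9 (2.35, SE 0.19, adjusted p = 2.06e-06). POX1, the acyl-CoA oxidase of the first step, was low in both species, at 0.804 and 0.503 CPM against 2.03 and 0.932, and not called (-1.15, adjusted p = 0.201). FAA2, a fatty acyl-CoA synthetase gene, was called lower (-1.19, adjusted p = 0.0262) but in no fit with a library left out (adjusted p from 0.0727 to 0.116). Of 29 peroxisome biogenesis genes 11 were higher and 0 lower, with a median of 0.45, and the largest ratio was that of PEX29 (1.39). The number higher was 17 with library totals as the scaling and 6 with only the RNA-seq columns of the parents and the hybrid.

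Mitochondrial carriers were mixed. CRC1, the carnitine carrier, had 11.4 and 12.4 CPM in S. cerevisiae against 2.16 and 1.05 in S. paradoxus (2.89, SE 0.43, adjusted p = 0.000205). ORT1, the ornithine carrier, had 52.9 and 51.4 CPM against 17.0 and 14.6 (1.72, SE 0.22, adjusted p = 7.72e-05). MIR1, the main phosphate carrier, was lower at 138 and 140 CPM against 365 and 332 (-1.32, SE 0.19, adjusted p = 0.000186). In the list of 27, 10 were higher and 3 lower, with a median of 0.22. The number lower was 1 without S. cerevisiae replicate 1 and 1 without replicate 2.

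Among 26 factors that act in stress and in the choice of carbon source, 9 were higher and 4 lower, with a median of 0.49. NRG2, a repressor of glucose-repressed genes, had 81.4 and 79.1 CPM in S. cerevisiae against 10.2 and 10.5 in S. paradoxus (2.96, SE 0.34, adjusted p = 3.5e-05). CIN5, a basic leucine zipper factor of salt and drug tolerance, had 71.1 and 108 CPM against 7.49 and 7.69 (3.56, SE 1.01, adjusted p = 0.0124). Its species were far apart, but the call was lost without S. cerevisiae replicate 2 (adjusted p = 0.0548) and without either S. paradoxus library (0.083 and 0.0769). MSN2, a general stress factor gene, was at 57.4 and 63.5 CPM against 52.7 and 61.4 (0.08, adjusted p = 0.737), and HSF1 was at 0.10. The glucose repressor gene MIG1 (-1.01) and the activator gene CAT8 (-1.19) were lower, and neither was called without S. paradoxus replicate 2 (adjusted p = 0.0764 and 0.221), without S. cerevisiae replicate 1 (0.0552 and 0.0601) or without its replicate 2 (0.0548 and 0.139). Without either S. cerevisiae library 0 members were called lower, and 1 without S. paradoxus replicate 2.

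Karyopherins, which carry proteins and RNA through the nuclear pore, had 12 of 15 lower and 0 higher, with a median of -0.90. PSE1 had 278 and 280 CPM in S. cerevisiae against 550 and 668 in S. paradoxus (-1.13, SE 0.24, adjusted p = 0.00211). KAP104 had 182 and 178 CPM against 369 and 398 (-1.09, SE 0.20, adjusted p = 0.00083). CRM1, the main exporter of proteins, had 166 and 160 CPM against 307 and 306 (-0.91, SE 0.16, adjusted p = 0.000604). In all 3 both S. paradoxus libraries lay above both of S. cerevisiae, and 78.4% of all genes had no overlap in either direction. MSN5 (-0.01), CSE1 (-0.36) and KAP95 (-0.65) were not called. With library totals as the scaling 10 members were lower and the median was -0.63. Leaving out 1 library left 9 to 11 lower.

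The nuclear pore itself had 13 of 32 lower and 0 higher, with a median of -0.49. NUP192 had 95.4 and 93.2 CPM in S. cerevisiae against 229 and 207 in S. paradoxus (-1.21, SE 0.20, adjusted p = 0.00043), and POM152, a membrane ring protein gene, had 106 and 103 CPM against 259 and 210 (-1.16, SE 0.21, adjusted p = 0.000775). NUP2 (-0.06), NUP53 (0.01) and GLE1 (-0.03) lay near equality. The number lower was 8 without S. cerevisiae replicate 1, and 7 with library totals, under which 1 member was higher.

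The nuclear exosome degrades and trims RNA. Of 18 listed exosome and cofactor genes 10 were tested, and 8 of these were lower and 0 higher, with a median of -0.90. The other 8 were not analysed here. DIS3, its catalytic subunit, had 133 and 129 CPM in S. cerevisiae against 257 and 322 in S. paradoxus (-1.14, SE 0.18, adjusted p = 0.000269), and MTR3, of the ring, had a ratio of -1.23. Without S. cerevisiae replicate 2, 4 were lower. Genes of tRNA modification had 17 of 34 lower and 2 higher, with a median of -0.68. TRM7, a methyltransferase gene of the anticodon loop, had 68.3 and 63.4 CPM against 194 and 177 (-1.49, SE 0.14, adjusted p = 7.76e-06), and TRM3 had a ratio of -1.50. The higher members were MOD5 (0.57), which was called in no fit with a library left out (adjusted p from 0.0833 to 0.177), and PUS6 (0.82), not called without S. cerevisiae replicate 1 (0.0594). The number lower was 11 without S. cerevisiae replicate 2 and 10 with library totals.

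RNA polymerase III, which transcribes tRNA genes, and its factors had 10 of 20 lower and 0 higher, with a median of -0.62. RPC82 had 82.2 and 72.3 CPM in S. cerevisiae against 211 and 299 in S. paradoxus (-1.72, SE 0.24, adjusted p = 0.000133), and RET1, its second largest subunit, had 125 and 114 CPM against 267 and 276 (-1.18, SE 0.17, adjusted p = 0.000169). The initiation factor genes BRF1 (-0.14), BDP1 (0.30) and TFC7 (0.43) were not called. Without S. cerevisiae replicate 2, 6 were lower, and with library totals 7 were lower and 2 higher. RNA polymerase II had 5 of 11 lower and 0 higher (median -0.47), and 0 lower with library totals. The numbers lower were also 2 without S. cerevisiae replicate 1, 0 without replicate 2 and 0 without S. paradoxus replicate 1. Cohesin and condensin, with 8 of 22 lower and 1 higher (median -0.56), had 3 lower with library totals, 4 without S. cerevisiae replicate 1, 1 without its replicate 2, 5 without S. paradoxus replicate 1 and 4 without its replicate 2. The higher one was not called without S. cerevisiae replicate 2 or S. paradoxus replicate 1. Other settings raised the number lower. With only the parental columns in the fit 13 were lower and 2 higher, and with only the parental RNA-seq columns 13 were lower.

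Of 33 DNA repair genes 13 were higher and 5 lower, with a median of 0.28. The number lower was 8 with only the parental columns in the fit and 9 with only the parental RNA-seq columns. With library totals 16 were higher and 4 lower. The genes named here are all among the higher ones. MGT1, the methyltransferase that takes methyl groups off guanine, had 22.5 and 17.1 CPM in S. cerevisiae against 2.67 and 4.78 in S. paradoxus (2.40, SE 0.33, adjusted p = 0.000134). REV1, a translesion polymerase gene, had 35.5 and 28.9 CPM against 7.36 and 6.87 (4.51-fold, log2 SE 0.33, adjusted p = 0.000253). PHR1, the photolyase, had 45.8 and 46.8 CPM against 15.9 and 16.4 (1.52, SE 0.28, adjusted p = 0.000901).

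DNA replication genes had 3 of 44 higher and 11 lower, with a median of -0.20 that became 0.06 with library totals. CDC6, which loads the replicative helicase, stood apart at 27.1 and 31.6 CPM in S. cerevisiae against 116 and 159 in S. paradoxus (-2.23, SE 0.18, adjusted p = 2.06e-06). Of the origin recognition complex ORC4 was higher (1.28, adjusted p = 0.000137). The numbers lower were 6 without S. cerevisiae replicate 1, 3 without its replicate 2, 6 without S. paradoxus replicate 2 and 3 with library totals, and 1 was higher without S. cerevisiae replicate 2. In the kinetochore, with 6 of 35 higher and 4 lower (median 0.13), the one large ratio was that of CTF19, at 144 and 158 CPM against 24.9 and 34.8 (2.34, SE 0.45, adjusted p = 0.00118). Its partner AME1 was at 1.12 and CTF13, of the inner kinetochore, at -1.18. The number lower was 1 without either S. cerevisiae library, 2 without S. paradoxus replicate 2 and 1 with library totals.

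Some other lists had medians closer to 0. The medians were -0.04 for the 24 genes of the Mediator, 0.04 for the 24 of the SWI/SNF and RSC remodellers, -0.12 for 54 spliceosome genes and -0.17 for 21 genes of protein translocation into the endoplasmic reticulum. With library totals they were 0.23, 0.31, 0.15 and 0.10, so 3 of the 4 changed sign with the scaling. Across all 50 lists, 14 had a median over 0.5 in size.

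**Figure D4:**
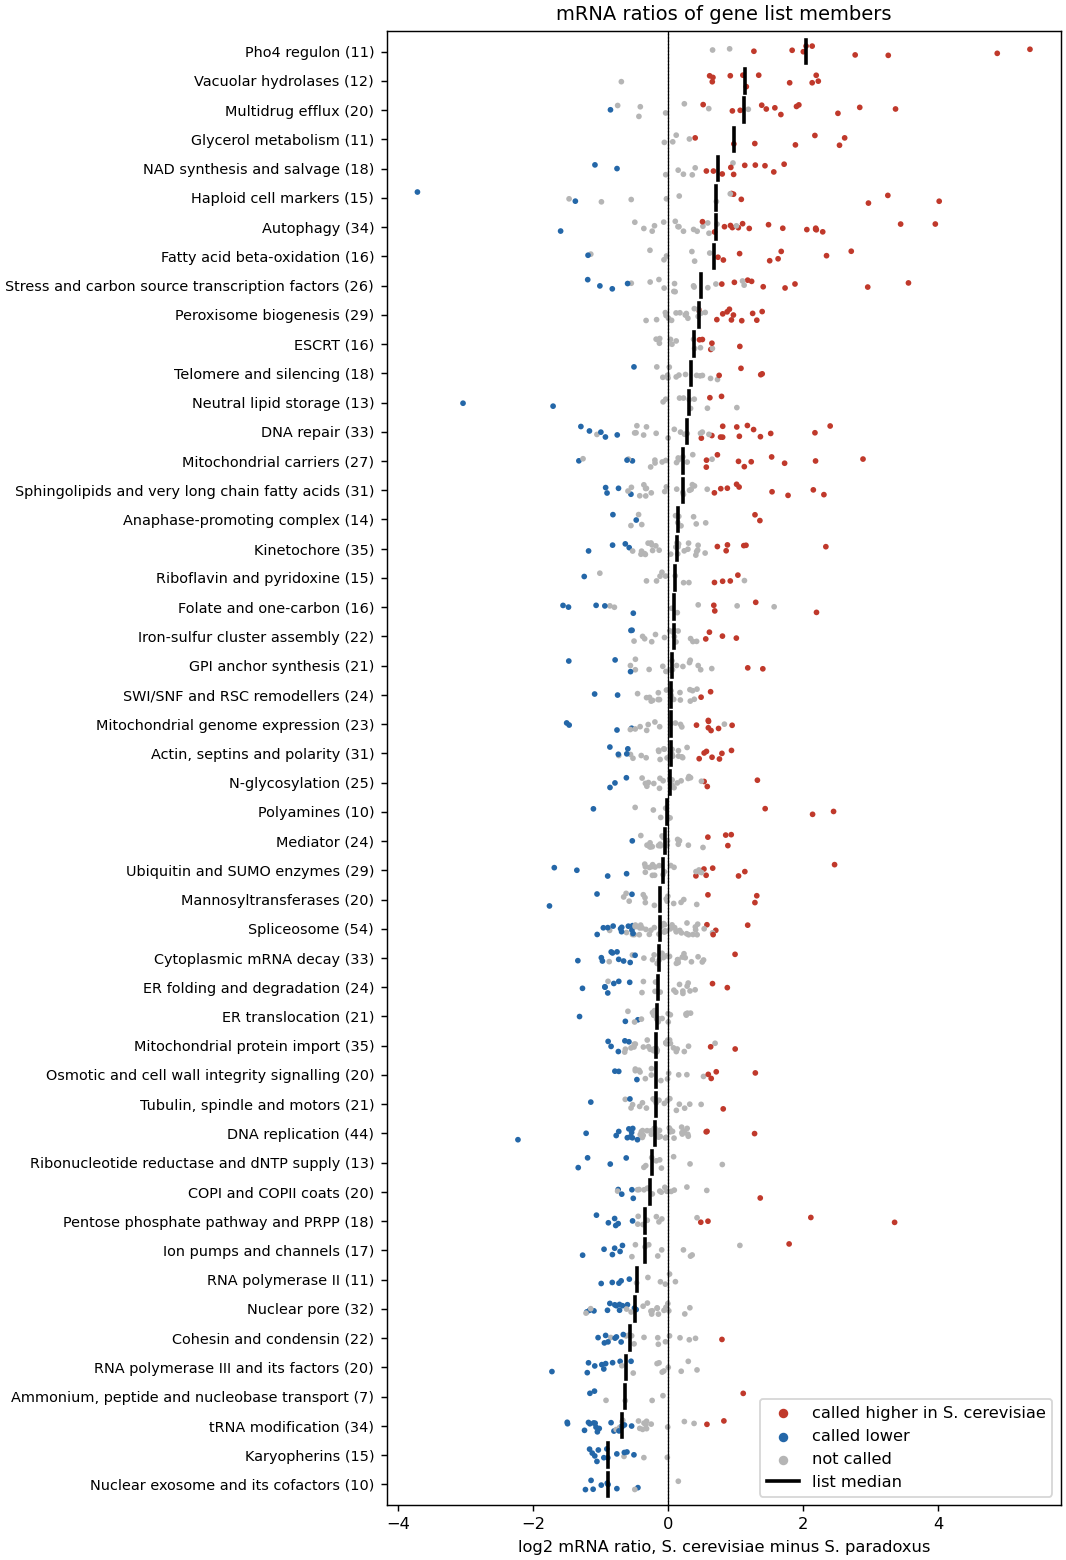
Log2 mRNA ratio (S. cerevisiae minus S. paradoxus) of the tested members of 50 gene lists, 1 point a gene, with the list's median as a black bar and the number of tested members in brackets. Red points were called higher, blue points lower and grey points not called. Medians run from 2.04 for the Pho4 regulon to -0.90 for karyopherins and the nuclear exosome.

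Genes were also read in pairs of paralogs and isozymes, which were chosen after values were seen. In 50 such pairs, 6 pairs had a member that was not tested. Both members were higher in 6 pairs, both lower in 2, and the members were called in opposite directions in 4. In 21 pairs 1 member was called and in 11 neither. Of all genes 43.5% were called, 21.9% higher and 21.6% lower, and the classes are a description of the chosen pairs. ACS2, the acetyl-CoA synthetase used in glucose, had 274 and 297 CPM in S. cerevisiae against 672 and 894 in S. paradoxus (-1.46, SE 0.20, adjusted p = 0.000107), while glucose-repressed ACS1 had 8.94 and 9.46 CPM against 1.14 and 0.932 (3.13, SE 0.63, adjusted p = 0.00152). ACS2 remained the main form in both species, with ACS1 at 2.995% of the pair per kilobase in S. cerevisiae and 0.127% in S. paradoxus.

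HXK2, the form of glucose-grown cells, had 285 and 265 CPM in S. cerevisiae against 478 and 472 in S. paradoxus (-0.79, SE 0.18, adjusted p = 0.00329). HXK1 had 182 and 253 CPM against 52.8 and 47.8 (2.11, SE 0.76, adjusted p = 0.0388), a call that was made in no fit with a library left out (adjusted p from 0.0638 to 0.156). HXK2 made up 55.8% of the pair in S. cerevisiae and 90.4% in S. paradoxus per kilobase. Of the phosphate carriers of mitochondria, PIC2 (2.18) made up 40.5% of the pair with MIR1 in S. cerevisiae and 5.65% in S. paradoxus.

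Of the branched-chain aminotransferases, mitochondrial BAT1 had 219 and 223 CPM in S. cerevisiae against 421 and 687 in S. paradoxus (-1.33, SE 0.26, adjusted p = 0.00117), and cytosolic BAT2 had 542 and 604 CPM against 258 and 299 (1.04, SE 0.22, adjusted p = 0.002). BAT2 was 73.0% of the pair in S. cerevisiae and 34.5% in S. paradoxus. In the pentose phosphate path SOL4, a minor 6-phosphogluconolactonase gene, had 41.7 and 47.0 CPM against 4.57 and 4.08 (3.35, SE 0.63, adjusted p = 0.001), while its paralog SOL3 was at -0.09 and not called. Of other minor forms there, the transaldolase gene NQM1 was higher (2.11) and the transketolase gene TKL2 was not called (0.43). The homocitrate synthase genes LYS20 (1.96) and LYS21 (1.68), of the first step of lysine synthesis, were both higher. PDC1 (-1.10) and PDC5 (-1.61) were both lower.

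**Figure D5:**
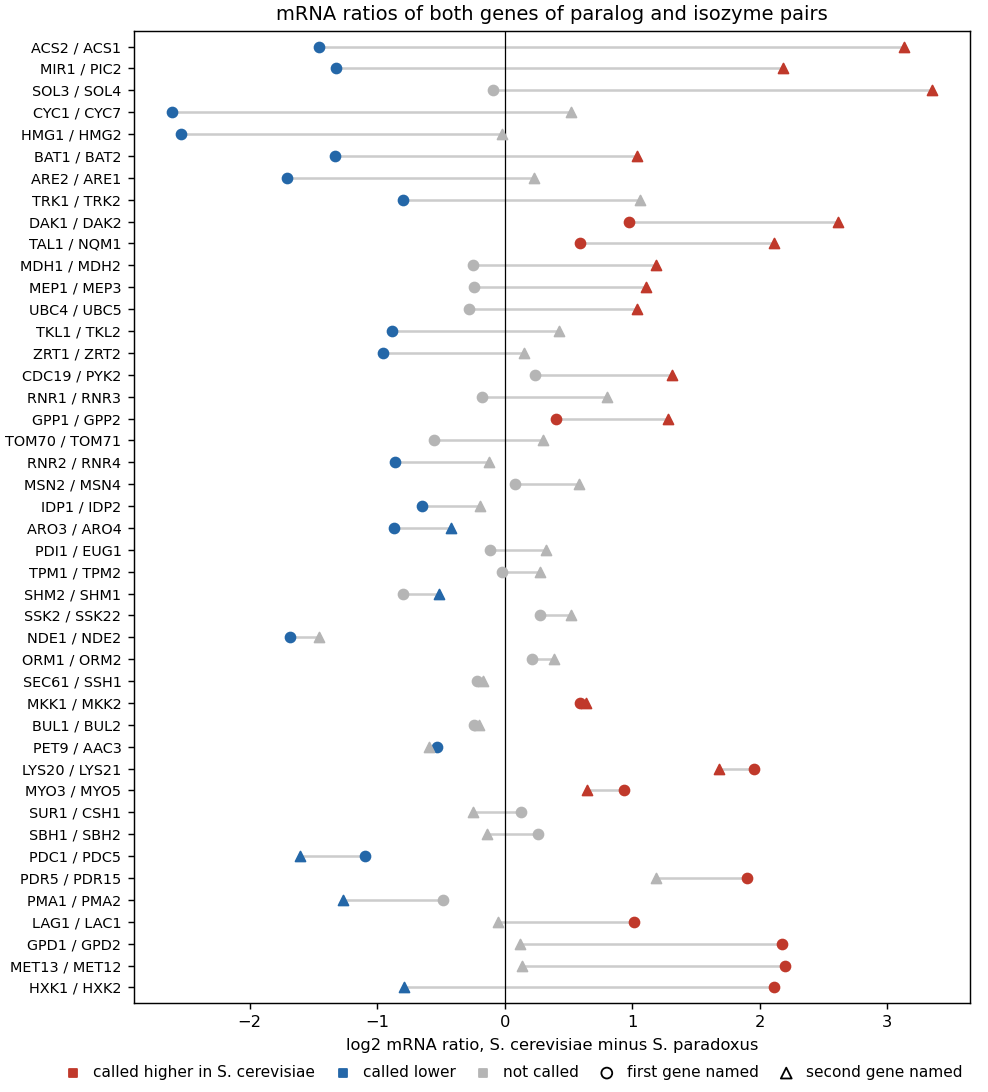
Log2 mRNA ratio (S. cerevisiae minus S. paradoxus) of both members of the 44 tested paralog and isozyme pairs. Circles show the first and triangles the second gene named, red marks genes called higher, blue lower and grey not called. The pairs with a red and a blue symbol are ACS2 and ACS1, MIR1 and PIC2, BAT1 and BAT2, and HXK1 and HXK2.

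The label of both strains is diploid, and cells with both mating types repress haploid genes. Of 15 tested haploid marker genes 6 were called higher and 2 lower, with a median of 0.71 between the parents and -0.38 between the hybrid alleles. The largest ratio was that of RME1 (4.02, adjusted p = 1.96e-05). STE2, the alpha-factor receptor gene, had 35.0 and 44.1 CPM in S. cerevisiae against 19.7 and 21.5 in S. paradoxus, and was not called without S. cerevisiae replicate 2 (adjusted p = 0.0606). STE4, the beta subunit gene of the pheromone G protein, had 28.9 and 29.4 CPM against 4.06 and 3.38 (2.97, SE 0.32, adjusted p = 2.04e-05). Its partner GPA1, the alpha subunit, went the other way at 10.0 and 10.4 CPM against 27.4 and 25.6 (-1.38, SE 0.23, adjusted p = 0.000521), as did the arrest gene FAR1 at 0.402 and 0.805 CPM against 6.35 and 9.90 (-3.72, SE 0.48, adjusted p = 7.63e-05). The pheromone gene MFA1 had 15 and 11 counts in S. cerevisiae and 1 in each S. paradoxus library, with a log2 ratio of summed counts of 3.43 (exact 95% interval 1.43 to 6.55).

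In 20 genes that passed the filter, 1 species had at most 3 counts in each library, 6 times S. cerevisiae and 14 times S. paradoxus. The protease inhibitor gene PAI3 had 56 and 31 counts in S. cerevisiae and 2 and 1 in S. paradoxus, and its log2 ratio of summed counts was 4.59 (exact 95% interval 2.99 to 6.89). YNL171C, whose orthologs differ in length by 30.9%, had 1 and 3 counts in S. cerevisiae and 32 and 24 in S. paradoxus (-4.08, interval -6.01 to -2.64). AZR1, a transporter gene, had 11 and 17 counts against 1 and 2 (2.95, interval 1.25 to 5.31), and DAK2, a dihydroxyacetone kinase gene, had 16 and 8 against 2 and 1 (2.73, interval 1.01 to 5.10). Neither AZR1 (adjusted p = 0.0529) nor DAK2 (0.0808) was called without S. paradoxus replicate 2. AZR1 was not called without S. cerevisiae replicate 2 (0.0809) or S. paradoxus replicate 1 (0.0871) either, nor DAK2 without S. cerevisiae replicate 1 (0.0899). These intervals cover counting error only. Genes known only by a systematic name were called in 50.4% of 339 cases, with 109 higher and 62 lower, against 43.0% of 4819 named genes.

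Chromosome medians ran from -0.07 (I) to 0.13 (IX), with 36.0% to 48.1% of genes called. Distances were taken to the nearer outermost gene of the chromosome in the RefSeq R64 table. Of the 109 genes at 20 to 30 kilobases, 56.9% were called, and in the other distance classes 40.1% to 47.8%. Called differences of at least 4-fold made up 17.4% of the 23 genes within 10 kilobases, 16.9% of the 65 genes from 10 to 20 kilobases, 9.17% from 20 to 30 kilobases and 5.01% to 5.45% beyond. Neighbours that are transcribed away from each other, and so share the DNA between them, had the same direction in a larger share of pairs than other neighbours, a difference that was not tested. Of 210 divergent pairs with both genes called, 138 (65.7%) had the same direction, against 53.9% of 438 tandem pairs and 51.4% of 247 convergent pairs. The correlation of ratios within pairs was weak throughout, at 0.12 over 1180 divergent, 0.05 over 2184 tandem and -0.03 over 1255 convergent pairs.

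Some divergent pairs hold genes described above. ATG40 (2.19) and PDR5 (1.90) lie 1551 bases apart and were both higher. The transcripts of PDR8 (1.45) and BOP2 (2.60), which lie 487 bases apart, were higher as well. YEH1 (-3.04) and PUF3 (-1.54), the gene of an RNA-binding protein of mitochondrial mRNAs, are separated by 819 bases and were both lower. ELO1 (1.78), a fatty acid elongase gene (X, 67850 to 68782), and CDC6 (-2.23; X, 69338 to 70879) are neighbours with opposite calls.

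Other libraries of the series give readouts that are not part of the parental mRNA ratio. Their columns did enter the filter, the scaling and the shared spread, and so the calls. Over all genes tested, 76.6% had the same sign in parental Ribo-seq and 66.8% between the alleles of the hybrid. Of the 1129 genes called higher, 1032 (91.4%) also had a ratio above 0 in parental Ribo-seq and 859 (76.1%) between the alleles of the hybrid. Of the 1116 called lower, 980 (87.8%) and 849 (76.1%) were below 0 in these readouts. Of the genes not called, 66.6% and 59.6% had the same sign. Over the 5158 genes the mRNA ratio of the parents correlated by 0.73 with the Ribo-seq ratio and by 0.55 with the allelic ratio, as a description across genes, whose points share gene length and sequence differences between the orthologs. The median allelic ratio was 0.34 for genes called higher and -0.23 for genes called lower. Their parental medians of 1.06 and -0.94 come from the values that chose the genes, so the sizes in the 2 readouts cannot be compared.

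Among the genes of the largest ratios the allelic ratios varied widely. These genes too were chosen by their parental ratios, which are given beside the allelic ones as a description. Of the 12 highest, 7 had an allelic ratio over 1 and 5 did not, 3 of them with the opposite sign. ADH2 was at 5.23 and YJR096W at 4.05 between the alleles, beside parental ratios of 5.75 and 4.39. CHA1 was at 0.17 beside a parental 4.29 and DCS2 at 0.15 beside 4.81. For CHA1 the S. cerevisiae allele had 6295 and 5047 counts and the S. paradoxus allele 5182 and 5167 in the hybrid RNA-seq. Of the 12 lowest, 9 had an allelic ratio below -1, among them RTA1 at -3.96 and CTR3 at -4.51, and FRE4 was at -0.23. All 12 of the highest and 11 of the 12 lowest were over 2-fold in the same direction in Ribo-seq, the exception being YBR032W.

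Of the 14 lists with a parental median over 0.5 in size, 12 had an allelic median under 0.25 in size, where the lists were picked by the parental value. The Pho4 regulon was at 2.04 between the parents and 0.04 between the alleles, and the vacuolar hydrolases at 1.13 and 0.10. Karyopherins were at -0.90 and -0.11 and autophagy genes at 0.70 and -0.02. Parental Ribo-seq medians of these lists were 2.67, 1.35, -0.35 and 0.46 in the same order. Whether parental and allelic ratios differ was not tested here.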

How the data were processed

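RNA-seq of S. cerevisiae and S. paradoxus was compared, 2 libraries each. The authors deposited raw counts of reads per gene. The submitters' processing notes name CASAVA 1.8, cutadapt 1.2.1, Bowtie 0.12.8, bedtools 2.17.0 and build sacCer3. Not given in the sources used here are each tool's role, the S. paradoxus assembly and strand use in counting, so overlapping and antisense genes and near-identical paralogs are uncertain. Coordinates and coding lengths are from the deposited gene tables, and a RefSeq R64 table named 5183 of 5226 IDs.

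Counts were fitted with edgeR 4.0.16 in R 4.3.3 over all 16 columns: TMM scaling, group means, the filter filterByExpr (minimum count 10) and the quasi-likelihood test, with calls at a Benjamini-Hochberg adjusted p below 0.05. Residual degrees of freedom were 8, with both allele columns of a hybrid library counted as separate observations. Alleles of 1 library can share its deviation, so these columns are not independent replicates and 8 may be too many. The effect on the adjusted p-values was not tested. The script was tested on simulated data. Alternatives (17) used other scalings, filters, DESeq2 1.42.0, limma 3.58.1 voom, fewer columns, coding length corrections, a replicate block, or 1 library fewer.

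Genes named are the 12 highest and 12 lowest ratios of called genes with at least 20 CPM in one species and lengths within 5%, the 10 largest CPM differences each way, the 10 highest levels per kilobase, up to 4 members a list, and further members where a family is described. The comparison and lists were chosen with earlier results of these data known, and the paralog pairs after values were seen. Divergent pairs and genes at 3 counts or fewer were named after their values were seen.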

Additional observations from a re-analysis of the deposited data

How the results depend on the processing

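Of 2245 calls, 1074 (567 higher, 507 lower) were made under all 17 alternatives, and of 236 called genes that the naming rule picked, not all of which the text names, 0 changed direction and up to 54 lost their call (without S. cerevisiae replicate 2). Library totals gave 1698 higher and 650 lower. The RNA-seq columns alone, those of the hybrid alleles included, gave 1463 calls, 691 of them higher. The parental RNA-seq columns alone gave 2649 calls (1298 higher, 1351 lower). Leaving out 1 library gave 1352 to 1831 calls, 745 to 895 higher and 607 to 936 lower. The parental columns alone gave 2959 calls. The causes were not tested.

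The replicate numbers are shared by the species' labels and nothing ties them to a batch. Deviations of same-numbered libraries correlated by 0.209 across genes over only 2 pairs. A fit with the replicate number of the 4 parental RNA-seq columns as a block gave 2168 calls (1105 higher, 1063 lower), of which 2149 were shared with the fit without it. The Ribo-seq and hybrid columns, which share in the estimate of the spread, carried no block. Of the 236 genes, 3 lost their call under the block, among them RPS12 (adjusted p = 0.0622).

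With 2 libraries a species, small differences in genes of few counts could not be detected.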
